A study of Drosophila melanogaster with 4 samples.

Results

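The sarcomere and muscle attachment genes of Drosophila melanogaster were described in poly-A RNA of whole larval heads from a glioma model. They were chosen by symbol from a list of 38 genes that encode the contractile filaments, the Z-disc, the anchorage of muscle nuclei, regulators of muscle gene expression and the integrin attachment to tendon cells. Of the 38 symbols, 34 had a row in the table of 11880 genes. The other 4, Act88F, TpnC4, Zasp67 and fln, were not analysed here. Each gene in the table held at least 1 count in every library, and all 34 members held at least 10 counts in every library.

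The study set 4 groups of larvae against each other, with 1 library in each, so no difference below has a replicate check and no test between groups was made. All larvae carried tub>Gal80[ts] together with repo>Gal4 and UAS-myrRFP, so a membrane-bound red fluorescent protein was driven in glia, the cells in which the repo promoter is active. Control larvae carried nothing further. Glioma larvae also carried UAS-dEGFR[L] and UAS-dp110[CAAX], which place an EGFR construct and a membrane-tethered PI3K subunit under Gal4. GliomaxCa-alpha1T-RNAi larvae carried these and UAS-Ca-alpha1T-RNAi, against a T-type calcium channel, and GliomaxSlo-RNAi larvae carried UAS-Slo-RNAi instead, against a calcium-activated potassium channel. Egg laying took 3 days at 25 °C, and larvae were then held at 29 °C for 5 days so that Gal80 was inactivated, and no other agent was given. All 4 libraries bear the same batch label. The labels do not say how many heads were pooled, and the driver is a glial one whereas the RNA came from all tissues of the head.

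A sarcomere is the repeating unit of striated muscle. Myosin thick filaments slide along actin thin filaments, troponin and tropomyosin make the sliding depend on calcium, and the Z-disc crosslinks thin filaments of neighbouring sarcomeres. In Drosophila larvae the body wall and head muscles are attached through integrins to tendon cells of the epidermis, and integrin-linked kinase and parvin join integrin to the actin cytoskeleton. Larval heads hold the muscles of the mouth hooks and the pharynx beside the brain, and none of these muscles is a cell type in which repo is known to be active.

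Total counts lay between 31594447 in GliomaxCa-alpha1T-RNAi and 38826243 in Glioma. Levels are given as CPM, a gene's counts per unit of library size, with library sizes scaled by TMM, a factor set by the bulk of genes. Intervals are 95% and cover counting error only, not variation between animals. They take reads as independent, and since PCR copies of a molecule are not, they may be too narrow even for counting error. Of the tumour constructs' genes, Egfr had 181.6 CPM in Control, 897.4 in Glioma, 961.8 in GliomaxCa-alpha1T-RNAi and 651.2 in GliomaxSlo-RNAi, and the PI3K gene Pi3K92E had 98.6, 903.0, 880.3 and 373.4 CPM. Both were lowest in Control, and GliomaxSlo-RNAi was the lowest of the other 3 libraries for both. Neither targeted channel was lower by 2-fold in its own RNAi library, so the RNAi groups are named below by their labels. Ca-alpha1T had 673 counts (19.1 CPM) in Glioma and 578 counts (16.6 CPM) in GliomaxCa-alpha1T-RNAi, and slo had 1208 counts (34.2 CPM) in Glioma and 753 counts (25.0 CPM) in GliomaxSlo-RNAi. In a bulk sample, fewer cells of a type and less RNA per cell cannot be told apart.

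The 34 members took 2.53% of all counts in Control, 6.83% in Glioma, 3.48% in GliomaxCa-alpha1T-RNAi and 4.46% in GliomaxSlo-RNAi. Their share was thus highest in Glioma and lowest in Control, with both RNAi libraries between. The order Glioma, GliomaxSlo-RNAi, GliomaxCa-alpha1T-RNAi, Control from high to low held for 24 of the 34 members one by one. Glioma was the highest library for 27 members and Control the lowest for 30. With total counts in place of TMM the full order held for 18 members, and with the authors' TPM, which also divides by transcript length, it also held for 18.

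**Figure D1:**
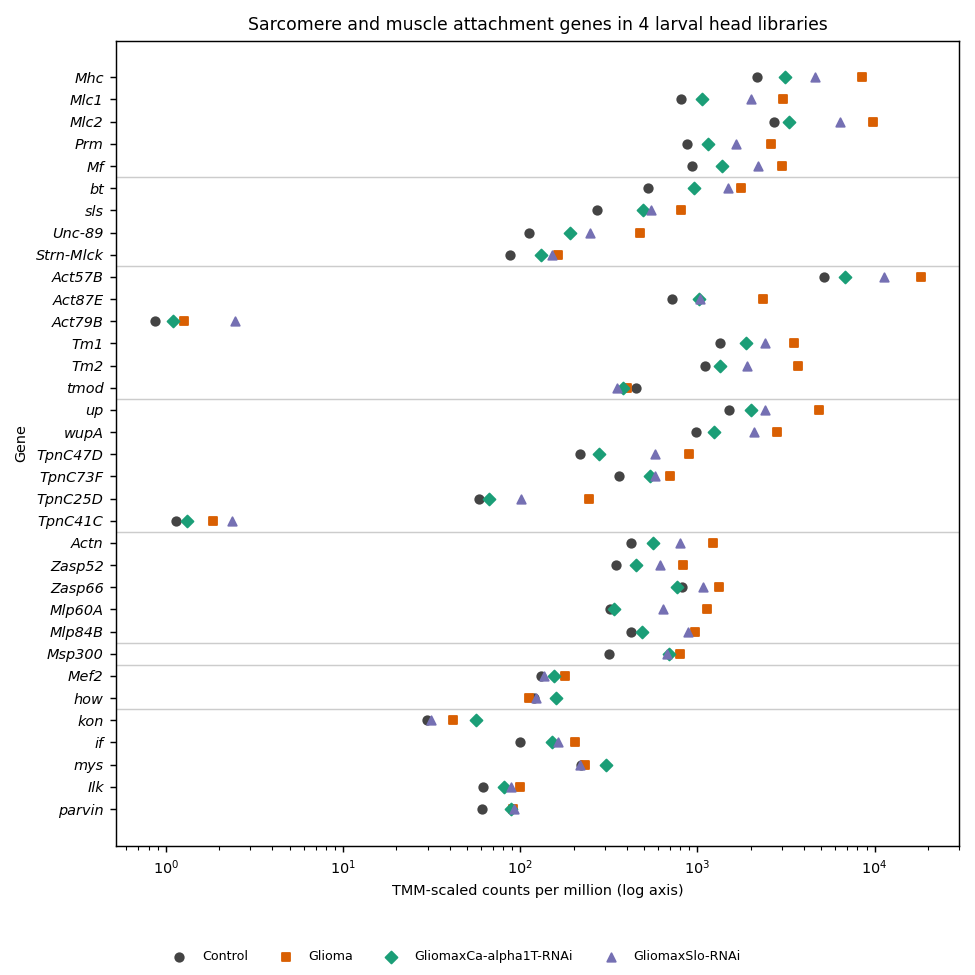
TMM-scaled CPM (log axis) of each of the 34 genes in the 4 libraries, 1 point per library, with grey lines between groups of genes by role. Thick filament genes such as Mhc run from 2181 in Control to 8497 in Glioma, whereas tmod lies between 349.7 and 450.2 in all 4 libraries.

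Compared by TPM, which sets levels of genes of different length side by side, the muscle actin Act57B was the most abundant member in every library, at 4111 in Control, 11589 in Glioma, 6051 in GliomaxCa-alpha1T-RNAi and 7769.7 in GliomaxSlo-RNAi. Its share of the members' counts was 21.9%, 24.4%, 21.6% and 23.9% in the same order. Mlc2, the regulatory light chain of myosin, came second in every library. The lowest members by TPM in Control and Glioma were the actin Act79B, at 0.73 and 0.85, and the troponin C isoform TpnC41C, at 1.37 and 1.51. Of the 34 members, 31 held at least 1000 counts in every library.

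Glioma was set against Control to show how the head transcriptome differs when glia carry the EGFR and PI3K constructs. A gene was called higher or lower when its ratio reached 2-fold, its counting interval excluded equality and 1 or both libraries held at least 10 counts. By this rule 22 of 34 members were higher in Glioma, against 10.1% of all genes tested, and 0 were lower, against 5.81% of all genes. The median log2 ratio of the members was 1.45, beside 0.00 over all genes. The members' ratios ran from -0.18 to 2.09, and 32 of 34 lay above 0.

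Thick filament genes had the highest median of the groups by role, and all 5 were called higher. Mhc, the muscle myosin heavy chain gene on chromosome 2L (16766566 to 16788766, dm6, plus strand), had 85669 counts in Control, 300028 in Glioma, 108367 in GliomaxCa-alpha1T-RNAi and 138086 in GliomaxSlo-RNAi. That is 2181, 8497, 3116 and 4580.1 CPM, so Glioma stood well above the other 3 libraries and the log2 ratio to Control was 1.96 (1.95 to 1.97). The essential light chain gene Mlc1 had 812 CPM in Control, 1066 in GliomaxCa-alpha1T-RNAi, 1996 in GliomaxSlo-RNAi and 3025 in Glioma, the same order of libraries. Mlc2 stood at 2691 CPM in Control against 9794 in Glioma (log2 ratio 1.86). Prm, which encodes the thick filament core protein paramyosin, had 876 and 2607 CPM, and Mf, which encodes myofilin, had 934 and 2989 CPM. The light chains kept their proportion to each other, with a TPM of Mlc2 over Mlc1 of 2.05 in Control, 1.91 in GliomaxCa-alpha1T-RNAi and a value between these in the other 2 libraries.

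Among the giant and kinase proteins, 3 of 4 were called higher in Glioma. Unc-89, the obscurin of the M-line, had 112 CPM in Control, 476 in Glioma, 191 in GliomaxCa-alpha1T-RNAi and 248 in GliomaxSlo-RNAi. Its log2 ratio of 2.09 (2.04 to 2.14) was the largest of any member on the TMM scale. The interval overlapped those of TpnC25D (1.99 to 2.12) and TpnC47D (2.01 to 2.08). Glioma stood clear of the other libraries for Unc-89, and Control was lowest. The projectin gene bt had 526 CPM in Control, 1753 in Glioma, 951 in GliomaxCa-alpha1T-RNAi and 1489.7 in GliomaxSlo-RNAi, so that GliomaxSlo-RNAi came close to Glioma. The gene sls, which encodes the titin-like Sallimus, had 271, 813, 494 and 549 CPM in the same order, with both RNAi libraries near each other on this scale but at 21.5 and 13.6 by TPM. Strn-Mlck was not called, at 88.1, 163, 131 and 150.2 CPM and a log2 ratio in Glioma of 0.89. On the TMM scale its 3 libraries with the tumour constructs lay closest together among the giant proteins. By TPM Strn-Mlck stood at 24.1, 26.4, 29.8 and 36.4 in the same order, so Glioma was near Control and GliomaxSlo-RNAi was highest.

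Of the 6 thin filament members, 4 were called higher. Act57B, on chromosome 2R (20944021 to 20946431, dm6, plus strand), had 204679 counts in Control, 645616 in Glioma, 237398 in GliomaxCa-alpha1T-RNAi and 342623 in GliomaxSlo-RNAi. Its log2 ratio in Glioma was 1.81, and that of the second muscle actin, Act87E, was 1.70 from 715 to 2332 CPM. The actin genes are near-identical in coding sequence, so reads could have been divided between them in the authors' counting. The tropomyosin gene Tm1 had 1343 CPM in Control, 3494 in Glioma, 1877 in GliomaxCa-alpha1T-RNAi and 2392 in GliomaxSlo-RNAi, and its neighbour on 3R, Tm2, had 1106, 3683, 1342 and 1898 CPM. Both were lowest in Control, with log2 ratios in Glioma of 1.38 and 1.74. Act79B held only 34, 45, 38 and 74 counts in Control, Glioma, GliomaxCa-alpha1T-RNAi and GliomaxSlo-RNAi, and its interval in Glioma (-0.12 to 1.24) included 0.

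The exception among the abundant thin filament genes was tmod, which encodes tropomodulin, the cap of the actin pointed end. It had 450.2 CPM in Control, 399 in Glioma, 379 in GliomaxCa-alpha1T-RNAi and 349.7 in GliomaxSlo-RNAi. On the TMM scale Control was the highest library for tmod and for no other member, and its log2 ratio in Glioma was -0.17 (-0.21 to -0.14). The TPM of tmod relative to Act57B was 0.0495 in Control, 0.0121 in Glioma, 0.0319 in GliomaxCa-alpha1T-RNAi and 0.0176 in GliomaxSlo-RNAi.

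Of the 6 troponin genes, 4 were called higher in Glioma. Troponin T (up) had 1503 CPM in Control, 4842 in Glioma, 2014 in GliomaxCa-alpha1T-RNAi and 2409 in GliomaxSlo-RNAi. Troponin I (wupA) had 985, 2830.3, 1247 and 2098 CPM in the same order. Both were highest in Glioma and lowest in Control, with log2 ratios of 1.69 and 1.52. The calcium-binding subunit troponin C is encoded by several genes. TpnC47D had 217 CPM in Control, 898 in Glioma, 277 in GliomaxCa-alpha1T-RNAi and 578 in GliomaxSlo-RNAi, whereas TpnC73F had 362, 697, 538 and 577 CPM. TpnC73F thus differed less between the highest and the lowest library than TpnC47D. In Glioma against Control, TpnC25D stood at 2.06 (1.99 to 2.12), TpnC47D at 2.05 (2.01 to 2.08), TpnC73F at 0.94 (0.91 to 0.97) and TpnC41C at 0.68 (0.11 to 1.27). The intervals of the first pair did not overlap those of the second pair. TpnC41C rested on 45 counts in Control and 65 in Glioma.

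At the Z-disc, alpha-actinin (Actn) stood at 422 CPM in Control against 1224 in Glioma (log2 ratio 1.54), and the PDZ-LIM gene Zasp52 had 346 and 832 CPM, a ratio of 1.27. Its relative Zasp66 was not called, at 824, 1326, 767 and 1076 CPM in Control, Glioma, GliomaxCa-alpha1T-RNAi and GliomaxSlo-RNAi and a ratio in Glioma of 0.69, and GliomaxCa-alpha1T-RNAi was its lowest library. The muscle LIM genes were both called higher. Mlp60A had 320.3 CPM in Control, 1139 in Glioma, 340.1 in GliomaxCa-alpha1T-RNAi and 637 in GliomaxSlo-RNAi, so GliomaxCa-alpha1T-RNAi was close to Control, and its log2 ratio in Glioma was 1.83. Mlp84B had 422, 964, 485 and 880.5 CPM, so GliomaxSlo-RNAi was close to Glioma, and its ratio in Glioma was 1.19. Msp300, the giant nesprin that anchors muscle nuclei, had 316 CPM in Control, 795 in Glioma, 688 in GliomaxCa-alpha1T-RNAi and 669 in GliomaxSlo-RNAi. The 3 libraries with the tumour constructs were close together for Msp300 and all were above Control.

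The regulators and attachment genes differed less. Of these 7 genes, 1 was called higher in Glioma, which is near the 10.1% of all genes, and their median log2 ratio was 0.48. Of the 26 sarcomere members, 20 were called, with a median of 1.63. The called gene of the 7 was if, the alpha-PS2 integrin subunit, which had 99.7 CPM in Control, 203 in Glioma, 150.3 in GliomaxCa-alpha1T-RNAi and 164 in GliomaxSlo-RNAi. Its beta partner mys had 221, 233, 304 and 217 CPM in the same order, so Control and Glioma were close and GliomaxCa-alpha1T-RNAi was the highest library. The log2 ratio of mys in Glioma was 0.08 with TMM and below 0 with total counts, TPM and FPKM. Integrin-linked kinase (Ilk) was at 0.70 and parvin at 0.59. The gene kon, whose transmembrane protein acts in muscle targeting, had 29.9 CPM in Control, 41.6 in Glioma, 56.4 in GliomaxCa-alpha1T-RNAi and 31.2 in GliomaxSlo-RNAi. Its highest library was thus GliomaxCa-alpha1T-RNAi, and Control and GliomaxSlo-RNAi were alike within their counting interval. The transcription factor gene Mef2, which drives muscle genes in development, had 131, 179, 155 and 136 CPM in the same order. The RNA-binding regulator how had 119.8, 112, 159 and 123 CPM, and Glioma was its lowest library. On the TMM scale no library was as much as 1.5-fold above another for either gene, but by TPM how stood at 73.0 in GliomaxCa-alpha1T-RNAi and 37.8 in Glioma. By TPM Mef2 stood at 36.8 in Control, 38.5 in Glioma, 47.0 in GliomaxCa-alpha1T-RNAi and 34.2 in GliomaxSlo-RNAi. Its highest library was thus Glioma on the TMM scale and GliomaxCa-alpha1T-RNAi by TPM.

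**Figure D2:**
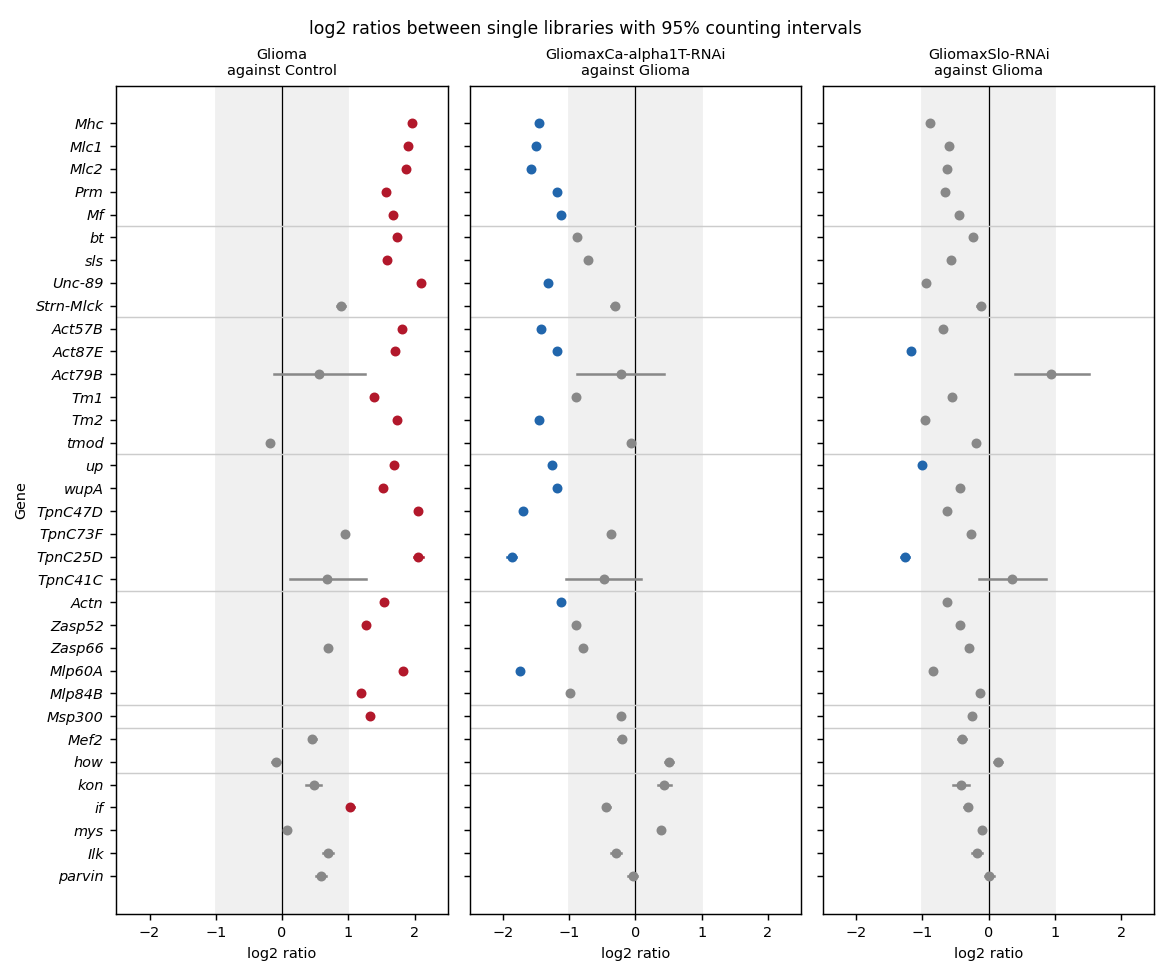
log2 ratios of the 34 genes in 3 comparisons, with 95% counting intervals as horizontal lines that are often shorter than the points. Red points were called higher and blue points lower, grey points were not called, and the grey band spans less than 2-fold. 22 genes are red against Control, 15 are blue in GliomaxCa-alpha1T-RNAi against Glioma and 3 are blue in GliomaxSlo-RNAi against Glioma.

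GliomaxCa-alpha1T-RNAi was set against Glioma to show how the head transcriptome differs when a construct against this channel is added in the glia. In it, 15 of 34 members were lower than in Glioma, against 6.88% of all genes, and 0 were higher, against 4.93%. The median log2 ratio of the members was -0.90, beside -0.01 over all genes, and 31 of 34 lay below 0, which was 26 with total counts and 21 with TPM. Glioma is also part of the comparison with Control, so a Glioma library that stood high would raise one set of ratios and lower the other.

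All 15 calls were sarcomere genes. The 5 thick filament genes were all called lower, at log2 ratios of -1.45 for Mhc, -1.57 for Mlc2, -1.18 for Prm and -1.13 for Mf and with Mlc1 2.84-fold lower. Unc-89 was the one giant protein called, at -1.31, while bt was at -0.88 and sls at -0.72. Act57B, Act87E and Tm2 were called at -1.42, -1.19 and -1.46. Of the troponins, up, wupA, TpnC47D and TpnC25D were called, TpnC25D having the lowest ratio of any member, -1.87 (-1.93 to -1.80). Actn at -1.12 and Mlp60A at -1.74 completed the calls, and Mlp84B, at -0.99, lay just short of 2-fold.

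None of the 7 regulators and attachment genes was called between these libraries, against 6.88% of all genes called lower and 4.93% called higher. Among 7 genes such shares lead to few calls or none. The median log2 ratio of the 7 genes was -0.04, and that of the 26 sarcomere members was -1.15. For how, kon and mys, GliomaxCa-alpha1T-RNAi was the highest of the 4 libraries, with log2 ratios to Glioma of 0.50 (0.44 to 0.56), 0.44 (0.34 to 0.54) and 0.38 (0.34 to 0.42). Msp300 was at -0.21 and tmod at -0.07, and for both the sign depended on the scaling.

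The count of calls in GliomaxCa-alpha1T-RNAi against Glioma depended on how the libraries were scaled. It was 9 with total counts, 8 with the authors' FPKM and 5 with their TPM, and the median of all genes then moved to 0.27, 0.22 and 0.40. The distance between the members' median and that of all genes was -0.88 with TMM and with total counts and -0.91 with TPM and with FPKM. A library's scaling factor cancels in this distance, so TMM and total counts had to give the same value. The 5 genes called under every scaling were Mlc1, Mlc2, TpnC47D, TpnC25D and Mlp60A. In Glioma against Control the same distance was 1.45 with TMM, 1.47 with TPM and 1.44 with FPKM, and 20 of the 22 calls held under every scaling, with Mlp84B and if lost.

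GliomaxSlo-RNAi was set against Glioma in the same way for the potassium channel. In it, 3 of 34 members were lower, against 6.8% of all genes, and 0 were higher, against 4.43%. The called genes were TpnC25D at a log2 ratio of -1.27 (-1.33 to -1.21), Act87E at -1.17 (-1.19 to -1.15) and up at -1.01 (-1.02 to -0.99). The median of the members was -0.44, beside -0.01 over all genes, and 30 of 34 ratios lay below 0, or 27 with TPM. Tm2 at -0.96, Unc-89 at -0.94 and Mhc at -0.89 came next. Act79B was at 0.94 (0.39 to 1.51) and not called, with 45 counts in Glioma and 74 in GliomaxSlo-RNAi. Of the 3 calls, that of up was lost under another scaling. The construct gene Pi3K92E was also lower in this library, with 31882 counts in Glioma and 11259 in GliomaxSlo-RNAi, and its part in these ratios was not tested.

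Act87E and Act57B did not keep their proportion in GliomaxSlo-RNAi. Act87E had 715 CPM in Control, 2332 in Glioma, 1024 in GliomaxCa-alpha1T-RNAi and 1037 in GliomaxSlo-RNAi, so both RNAi libraries were alike for it on this scale. By TPM it stood at 991.9 in GliomaxCa-alpha1T-RNAi and 772.9 in GliomaxSlo-RNAi. Act57B had 6827 CPM in GliomaxCa-alpha1T-RNAi and 11364 in GliomaxSlo-RNAi, so it lay higher in the latter. Act87E held 12.1%, 11.3%, 13.0% and 8.36% of the counts of the 3 muscle actins in Control, Glioma, GliomaxCa-alpha1T-RNAi and GliomaxSlo-RNAi.

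Each RNAi library was also set against Control. In GliomaxCa-alpha1T-RNAi, 1 member was higher, against 6.05% of all genes, and 0 were lower, against 4.15%. The called gene was Msp300, at a log2 ratio of 1.12 (1.09 to 1.15), and it was called under every scaling. The members' median was 0.40, beside -0.02 over all genes, and 32 of 34 ratios lay above 0. In GliomaxSlo-RNAi, 14 members were higher than in Control, against 7.31% of all genes, and 0 were lower, against 5.95%, with a median of 0.87 beside -0.01 over all genes. The ratios of called genes were led by bt, which was 2.83-fold higher, with Act79B at a log2 ratio of 1.49, TpnC47D at 1.41 and Mlc1 at 1.30. Of these 14 calls, Mlc1, Mlc2, Mf, bt and TpnC47D held under every scaling.

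Between the RNAi libraries, 2 members were lower in GliomaxCa-alpha1T-RNAi than in GliomaxSlo-RNAi, against 4.74% of all genes, and 0 were higher, against 5.66%. The called genes were Act79B, with 38 and 74 counts, and TpnC47D, with 277 and 578 CPM. Both calls were lost with total counts, TPM and FPKM, and total counts and TPM each called 1 member higher. The members' median was -0.47, beside 0.00 over all genes, and 28 of 34 ratios lay below 0, or 20 with TPM.

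Shares of counts within a gene family do not depend on a library's scaling factor, and they are compared here between libraries, not between genes. Of the counts of the 4 troponin C genes, TpnC47D took 34.0% in Control (exact Clopper-Pearson 95% interval 33.4 to 34.6), 48.8% in Glioma (48.4 to 49.2), 31.4% in GliomaxCa-alpha1T-RNAi (30.9 to 31.9) and 45.9% in GliomaxSlo-RNAi (45.4 to 46.4). TpnC73F took 56.7%, 37.9%, 60.9% and 45.9%. The share of TpnC47D was thus higher in Glioma and GliomaxSlo-RNAi than in the other pair of libraries. Between the genes, by TPM, TpnC47D and TpnC73F were near each other in Control, at 43.7% and 45.1% of the family, and TpnC47D led in Glioma, at 57.4% and 27.9%, and in GliomaxSlo-RNAi, at 56.0% and 34.7%. In GliomaxCa-alpha1T-RNAi TpnC73F led, at 49.7% against 41.5%. TpnC25D took 9.17%, 13.2%, 7.56% and 8.04% of the counts.

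Other families shifted less or in another manner. Mlp60A held 43.2%, 54.2%, 41.2% and 42.0% of the counts of the muscle LIM genes in Control, Glioma, GliomaxCa-alpha1T-RNAi and GliomaxSlo-RNAi, so that Glioma stood apart from the other 3. Tm2 held 45.2%, 51.3%, 41.7% and 44.2% of the tropomyosin counts, again highest in Glioma. By TPM its share spread less, at 47.3%, 49.5%, 43.8% and 43.5%. Zasp52 held 29.6% of the counts of Zasp52 and Zasp66 in Control and 38.6%, 36.9% and 36.3% in the other libraries, so that here Control stood apart, as it did by TPM, at 13.4% against 20.3%, 17.9% and 18.3%. Mlc1 held 23.2%, 23.6%, 24.4% and 23.9% of the light chain counts, a spread of about 1 point over all 4 libraries. The integrin subunits did not keep their proportion, with a TPM of mys over if of 3.11 in Control, 1.60 in Glioma, 2.82 in GliomaxCa-alpha1T-RNAi and 1.85 in GliomaxSlo-RNAi.

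**Figure D3:**
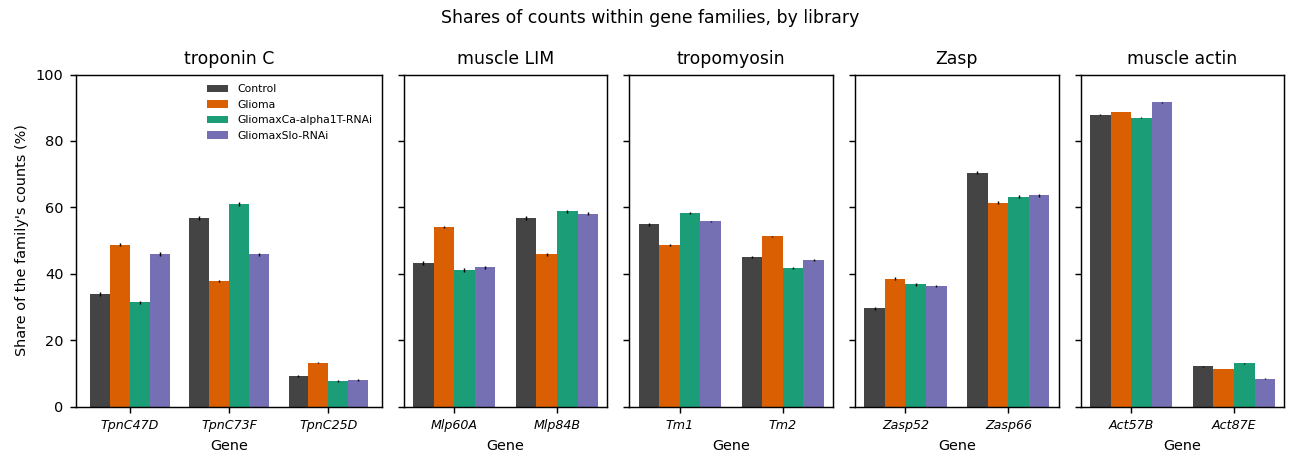
Share of each family's counts (percent) taken by its genes in the 4 libraries, with exact 95% binomial intervals; TpnC41C and Act79B, which hold under 1% of their families, are not drawn. TpnC47D is at 34.0% in Control and 48.8% in Glioma, and Act87E is lowest in GliomaxSlo-RNAi at 8.36%.

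The members with the most exonic sequence did not follow the shortest ones in GliomaxCa-alpha1T-RNAi. Against Control, the 5 sarcomere or anchorage members with the most exonic bases, Msp300, sls, Strn-Mlck, bt and Unc-89, had a median log2 ratio of 0.85. The 5 with the fewest, Act79B, Mlc1, TpnC25D, TpnC73F and TpnC47D, had a median of 0.35. In GliomaxSlo-RNAi the same medians were 1.08 and 1.30, and in Glioma 1.59 and 1.90. Across the 34 genes, Pearson's r between the log2 ratio to Control and log2 exonic bases was 0.55 and Spearman's rho 0.45 in GliomaxCa-alpha1T-RNAi, and r was -0.06 in GliomaxSlo-RNAi and -0.07 in Glioma. With log2 TPM in Control, r was -0.38 in GliomaxCa-alpha1T-RNAi, 0.05 in GliomaxSlo-RNAi and 0.45 in Glioma. The 5 longest members also ranked low by TPM in Control, from 26 (bt) to 31 (sls) of 34, and length and level were not separated here. These are descriptions across genes of single libraries that share the Control library, and the part of RNA integrity in them was not tested.

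**Figure D4:**
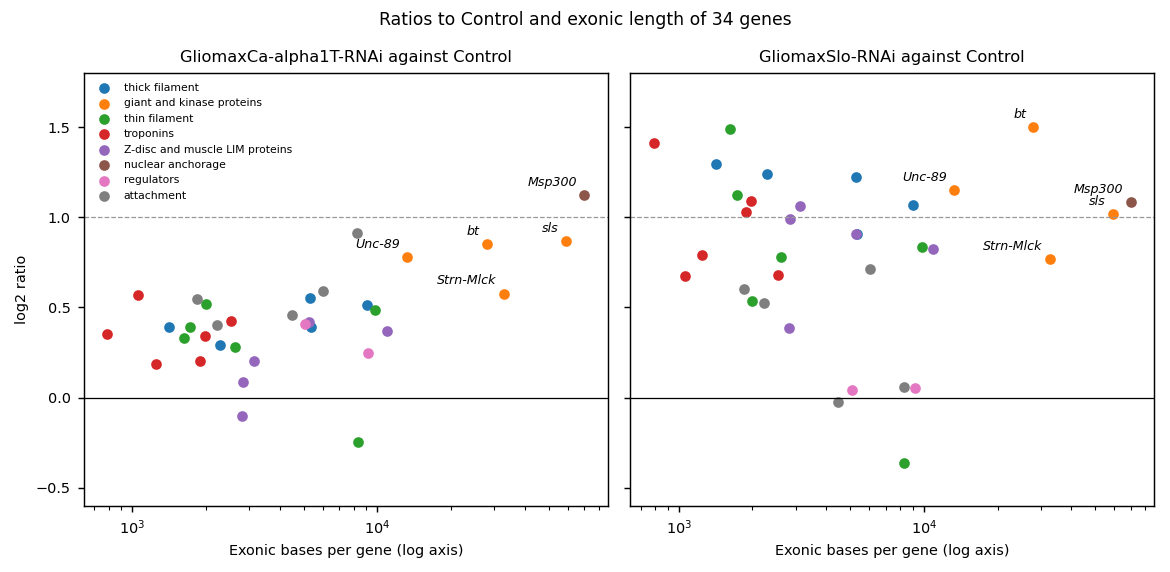
log2 ratio to Control of the 34 genes against their exonic bases (log axis) in GliomaxCa-alpha1T-RNAi (left) and GliomaxSlo-RNAi (right), coloured by role, with a dashed line at 2-fold. On the left Msp300 lies highest at 1.12 with bt, sls and Unc-89 next among the longest genes, and on the right short genes reach the height of bt.

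The members lie on all major chromosomes, with 4 on 2L, 8 on 2R, 6 on 3L, 9 on 3R, 1 on 4 (bt) and 6 on X. Exons of 10 members overlap those of another gene in the dm6 annotation, 8 of them on the opposite strand, and the sources used here do not give whether counting used the strand. TpnC25D (2L, 5216701 to 5219053, plus strand) overlaps tkv, which had 7796, 4200, 6261 and 3440 counts in Control, Glioma, GliomaxCa-alpha1T-RNAi and GliomaxSlo-RNAi, beside 2301, 8603, 2322 and 3051 for TpnC25D. The highest library differed between the pair, Control for tkv and Glioma for TpnC25D. Actn overlaps east, usp and CG4313, and kon overlaps grnd, which had 2359, 1494, 2086 and 1485 counts beside 1176, 1470, 1963 and 941 for kon. The antisense RNA asRNA:CR42860 at sls had 209, 854, 238 and 1510 counts, so GliomaxSlo-RNAi was its highest library, whereas sls itself was highest in Glioma.

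Other muscle genes were counted from lists that name no member. Of 10 excitation-contraction coupling genes, 5 were called higher in Glioma, with a median log2 ratio of 1.01. The shares of all genes called, given above for each comparison (10.1% higher and 5.81% lower in Glioma against Control), are the background for these lists too. The called genes included the sarcoplasmic calcium release channel RyR at 1.77, the calcium pump SERCA at 1.66, the junctophilin jp at 1.25 and the L-type channel gene Ca-alpha1D at 1.15. In GliomaxCa-alpha1T-RNAi against Glioma, 2 of the 10 were called lower, against 6.88% of all genes, SERCA at -1.32 and RyR at -1.16. Of 6 muscle glutamate receptor genes, which act at the larval neuromuscular junction, 4 were called higher in Glioma, GluRIIC at 1.76, GluRIIE at 1.49, Neto at 1.39 and GluRIIA at 1.01, with a median of 1.20. In GliomaxSlo-RNAi against Control, GluRIIC, GluRIIE and Neto were called higher at 1.54, 1.36 and 1.13.

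Of 19 other sarcomere and sarcoplasm genes, 5 were called higher in Glioma, among them the arginine kinase gene Argk at 1.44, CAP at 1.51 and Mp20 at 1.31, with a median of 0.39. Scp1 had the largest ratio but rested on 6 counts in Control and 43 in Glioma. Of 17 other attachment genes, 1 was called, the paxillin gene Pax at 1.60, with a median of 0.30. In the tendon cell list of 6 genes, tx was higher at 1.64 and slow, whose protein is secreted by tendon cells, was called lower, with 4043 counts in Control and 1812 in Glioma. Among 19 myogenic and fusion genes, 3 were called higher and 2 lower, with a median of -0.24, beside 10.1% and 5.81% of all genes. The nautilus gene nau, the Drosophila MyoD homolog, was at 1.48 from 97 to 244 counts, bap at 1.24 from 28 to 60 counts, ap at -1.11 and the fusion receptor gene kirre at -1.33. The non-muscle actin and myosin genes had 0 of 7 called in either direction and a median of -0.22.

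**Figure D5:**
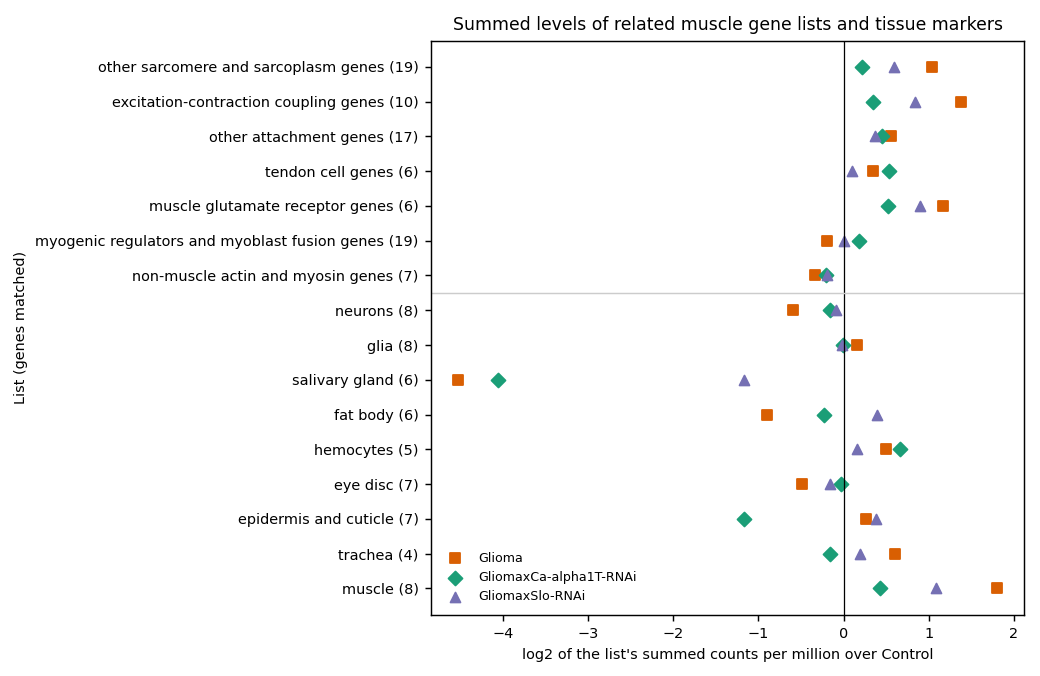
log2 of the summed CPM of each list over Control in the other 3 libraries, with related muscle gene lists above the line and tissue marker lists below it; the number of matched genes is in parentheses. In Glioma the coupling, glutamate receptor and other sarcomere lists lie to the right of 0 and the myogenic and non-muscle lists to the left, and the salivary gland list lies far to the left in Glioma and GliomaxCa-alpha1T-RNAi.

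Markers of other tissues of the head also moved between the libraries, and their part in the members' ratios was not tested. The 6 salivary gland glue genes summed to 21986 CPM in Control, 956 in Glioma, 1319 in GliomaxCa-alpha1T-RNAi and 9782 in GliomaxSlo-RNAi. All 6 were called lower in Glioma, with Sgs1 at 40355 counts in Control and 80 in Glioma. The 6 fat body genes summed to 16509, 8822, 14029 and 21649 CPM, the 8 neuronal genes to 497, 328, 444 and 466 CPM, and the 7 epidermis and cuticle genes to 19663, 23592, 8726 and 25500 CPM in the same order. The epidermis and cuticle genes did not move together. Their log2 ratios in Glioma against Control ran from -4.05 to 1.34 (median -0.33), with 2 called higher and 1 lower. In GliomaxSlo-RNAi against Control they ran from -5.67 to 1.21, with 1 called higher and 2 lower. The 8 glial genes summed to 982, 1091, 979 and 972 CPM, of which Gs2 held the most counts, 24782 in Control and 17818 in Glioma. Within that list, moody and repo were called higher than in Control in all 3 other libraries, with log2 ratios in Glioma, GliomaxCa-alpha1T-RNAi and GliomaxSlo-RNAi of 2.74, 2.31 and 2.43 for moody and 1.13, 1.29 and 1.19 for repo. In Glioma the ratios of Gs2, loco and Eaat1 were -0.32, -0.43 and -0.50, and these were not called. In GliomaxCa-alpha1T-RNAi against Control, 4 of the 8 glial genes lay below 0, the lowest at -0.82. In GliomaxSlo-RNAi against Control, 3 of the 8 lay below 0, the lowest at -0.72, and in neither comparison was a glial gene called lower. The 4 tracheal genes summed to 714, 1082, 639 and 813 CPM, the 5 hemocyte genes to 66.2, 93.3, 104 and 73.9 CPM and the 7 eye disc genes to 234, 167, 229 and 210 CPM. No matched marker in these lists was at 0 in any library. The muscle marker list, all 8 of whose genes are members, summed to 10075, 35239, 13526 and 21375 CPM, with no gene under 10643 counts. Markers of muscle, neurons and glia were thus all measured in every library labelled larval head.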

How the data were processed

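The libraries held poly-A RNA from larval heads in 4 groups of 1 library each, all with the batch label Batch_1. The authors deposited whole-number counts per gene and, as the file headers name them, the authors' FPKM and TPM values of each library. Tools listed in the submitters' processing notes were StringTie 2.1.3b, HISAT2 2.1.0, Trimmomatic 0.38, FastQC 0.11.7 and edgeR, with dm6 as the build. The sources used here do not give which of them made which column, or whether strand was used. Another 8 per-library columns of the table were not used.

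The members and lists were chosen with earlier results of these data known. Counts were scaled with TMM over the 4 libraries (edgeR 4.0.16, R 4.3.3), with factors of 1.06 for Control, 0.909 for Glioma, 1.10 for GliomaxCa-alpha1T-RNAi and 0.939 for GliomaxSlo-RNAi. Ratios were taken after adding a prior count of 0.5, scaled by library size. Exact conditional binomial intervals (95%) were computed for each pair of counts with Python 3.11.15 and scipy 1.17.1. The rule of size for calls, given with the results, was tested on simulated counts that held counting error only. They held no variation between animals or libraries, so that test does not show how often such variation leads to a call. Genes tested held at least 10 counts in either library.

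Positions and exonic bases came from the Ensembl annotation of dm6. Exonic bases count every annotated exon of a gene once. The 16 other lists held 144 entries, of which 143 matched by symbol or NCBI gene identifier (Argk, olf186-F and tx under newer or older names). All members with a row are described. Of each related muscle gene list, the genes called in Glioma against Control are named, or the 4 with the largest ratio where more than 4 were called. Calls in the other comparisons and in the tissue marker lists are named only in part, so an unnamed gene there may have been called. The alternatives were total counts, DESeq2 size factors (1.42.0), the authors' TPM and FPKM with a pseudocount of 1, no count minimum, at least 50 counts, and 1.5-fold.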

Additional observations from a re-analysis of the deposited data

Results flagged for a closer look

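The attachment gene kon and the integrin gene mys moved in opposite directions in the RNAi libraries relative to Glioma, each beyond counting error. For kon the log2 ratio was 0.44 (0.34 to 0.54) in GliomaxCa-alpha1T-RNAi and -0.42 (-0.54 to -0.30) in GliomaxSlo-RNAi, a difference of 0.85. For mys it was 0.38 (0.34 to 0.42) and -0.10 (-0.15 to -0.06), a difference of 0.48. With 1 library per group, neither difference was tested between groups. The ratio of mys in GliomaxSlo-RNAi changed sign with the authors' TPM. Reads at kon may include those of the overlapping gene grnd, which had 2086 counts in GliomaxCa-alpha1T-RNAi and 1485 in GliomaxSlo-RNAi.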

How the results depend on the processing

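No paired analysis was possible because each group holds 1 library, and no replicate could be left out. Of 120 counts and medians recomputed, 99 stayed within the limits set (1.5 times a count, the order-statistic interval of a median over the members) and 0 reversed. Only a median could reverse, since a count of calls has no sign. Dropping the count minimum could not change any result of the members, because all 34 held at least 10 counts in every library. The members called lower in GliomaxCa-alpha1T-RNAi against Glioma numbered 9 with total counts (4.15% of all genes), 5 with TPM (2.02%) and 8 with FPKM (2.37%), in place of 15. In GliomaxSlo-RNAi against Glioma, 1.5-fold called 1 higher (8.84%) and 13 lower (12.33%). In GliomaxCa-alpha1T-RNAi against Control, the median was 0.57 with TPM, and 1.5-fold called 6 higher (11.15%). In GliomaxSlo-RNAi against Control, 6 were higher with total counts (5.61%), with TPM (2.82%) and with FPKM (2.21%), and 26 at 1.5-fold (13.34%), and the median was 0.64 with TPM and 0.58 with FPKM. Between the RNAi libraries, total counts called 1 higher (7.94%) and 0 lower (3.30%), TPM 1 (6.12%) and 0 (1.52%) with a median of -0.12, FPKM 0 lower (1.46%), and 1.5-fold 1 higher (9.77%) and 12 lower (9.05%). Of 688 ratios of single members, 626 kept their call and 0 called ones reversed. Among these, an uncalled ratio that only changed sign counted as kept. Between the RNAi libraries the 688 cover only the 2 called members, and 10 uncalled ratios changed sign there. In GliomaxCa-alpha1T-RNAi against Glioma, those of Strn-Mlck, Act79B, tmod, TpnC73F, TpnC41C, Msp300, Mef2, if, Ilk and parvin changed sign. The other comparisons held such changes too, among them mys in Glioma against Control and Zasp66 in GliomaxCa-alpha1T-RNAi against Control. With total counts, the median over all genes lay at -0.22 in Glioma against Control, which took the share of calls that were higher from 63.5% to 46.4%. In GliomaxCa-alpha1T-RNAi against Glioma it took that share from 41.7% to 67.3%. Depth limits only Act79B and TpnC41C, whose counts stayed under 100.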
